A study of Homo sapiens with 12 samples.

Results

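The genes described here are those of GABA and glycine signalling: the receptors, the enzymes and carriers of both transmitters, and a pair of transporters that set the chloride gradient. Members were taken by symbol from the gene column of the counts table, and 26 of its 59653 rows are members. They comprise 11 subunits of the GABA-A receptor, 2 of the GABA-B receptor, 4 of the glycine receptor, 3 enzymes of GABA synthesis and breakdown, 4 vesicular or plasma membrane carriers and 2 chloride transporters. Further subunits and carriers of these families are not members and were left out. The RNA came from human neurons derived from IMR-90 induced pluripotent stem cells, an established line. Cells of 6 libraries had received a negative control siRNA (siNC), and cells of the other 6 an siRNA against ZCCHC17 (siZCC). The titles also carry the letters NPC, which the labels do not explain. ZCCHC17 is a zinc knuckle protein of the nucleus and nucleolus, and the series title links it to neuronal RNA splicing. All cells come from 1 line, and no label says whether replicates were separate cultures, so p-values measure the spread between these libraries, which may be technical.

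GABA is made from glutamate by glutamate decarboxylases, loaded into synaptic vesicles by a carrier that also loads glycine, and cleared by membrane carriers of neurons and astrocytes before being broken down in mitochondria. GABA-A and glycine receptors are chloride channels built from several subunits, while GABA-B receptors are pairs of subunits that act through G proteins. Whether the chloride channels hyperpolarise or depolarise a neuron depends on the chloride gradient, which SLC12A2 builds by importing chloride and SLC12A5 lowers by exporting it. Early in development SLC12A2 dominates and GABA is often depolarising.

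The siNC libraries held 90755953 to 120023356 counts each and the siZCC libraries 76115083 to 105389055. Levels are given as CPM, the count divided by the library total and scaled by TMM factors, where 1 CPM stood for 74.9 to 120.01 counts. ZCCHC17 was at 53.99 to 61.0 CPM in siNC and at 9.37 to 10.6 CPM in siZCC, so every library matched its label. The libraries also divide by the cytokine gene IL1B, known from earlier results on these data: 3 siNC libraries (replicates 2, 3 and 6) and 3 siZCC libraries (1, 4 and 5) held 449 to 1512 IL1B counts, and the other 6 held 2 to 12. A block for that division is among the alternatives. Neuron markers were present, with MAP2 at a mean of 1027 CPM in siNC, but so were markers of other classes. Summed levels in siNC were 3592 to 4032 CPM for 12 pan-neuronal genes, 2448 to 2588 CPM for 9 progenitor or radial glial genes, 1650 to 1874 CPM for 9 astrocyte genes and 681 to 792 CPM for 8 genes of dividing cells. Of 7 microglial markers 2 passed the filter on low counts, and the sum of all 7 was at most 2.28 CPM. In such bulk RNA, fewer cells of a type and less RNA per cell cannot be told apart.

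The GABA-B receptor subunits, the enzymes ABAT and GAD1 and the glycine carrier SLC6A9 had the highest levels per length, and the highest GABA-A subunit, GABRA5, was at 0.958 RPKM in siNC (1.22 RPKM with the longest transcript as the length). In RPKM (CPM divided by the exon length in kilobases), the order of the mean levels in siNC began with GABBR2 (73.4 ± 4.53), ABAT (55 ± 1.24), GAD1 (28.7 ± 1.155), SLC6A9 (26.9 ± 1.67), GABBR1 (20.8 ± 0.978) and SLC32A1 (14.2 ± 0.534; SD, n = 6 throughout). The bands of 1 SD around these means did not overlap between neighbours, except for GAD1 and SLC6A9. GLRA2 (8.44 ± 0.551 RPKM) and GLRB (5.03 ± 0.181 RPKM) followed. SLC12A5, GAD2 and SLC12A2, at 3.03, 2.78 and 2.68 RPKM, had overlapping bands, as did GABRA5, GABRQ, GLRA3 and SLC6A11 at 0.766 to 0.958 RPKM. SLC6A5 lay between them at 1.47 RPKM, and the other 5 members tested were at 0.0257 to 0.143 RPKM. In siZCC the order was alike, but SLC6A9 (34.5 RPKM) stood above GAD1 (28.0 RPKM), and SLC6A11 (1.32 RPKM) moved from place 16 to place 13. Taking the longest transcript as the length left the first 9 places in siNC as they were.

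**Figure D1:**
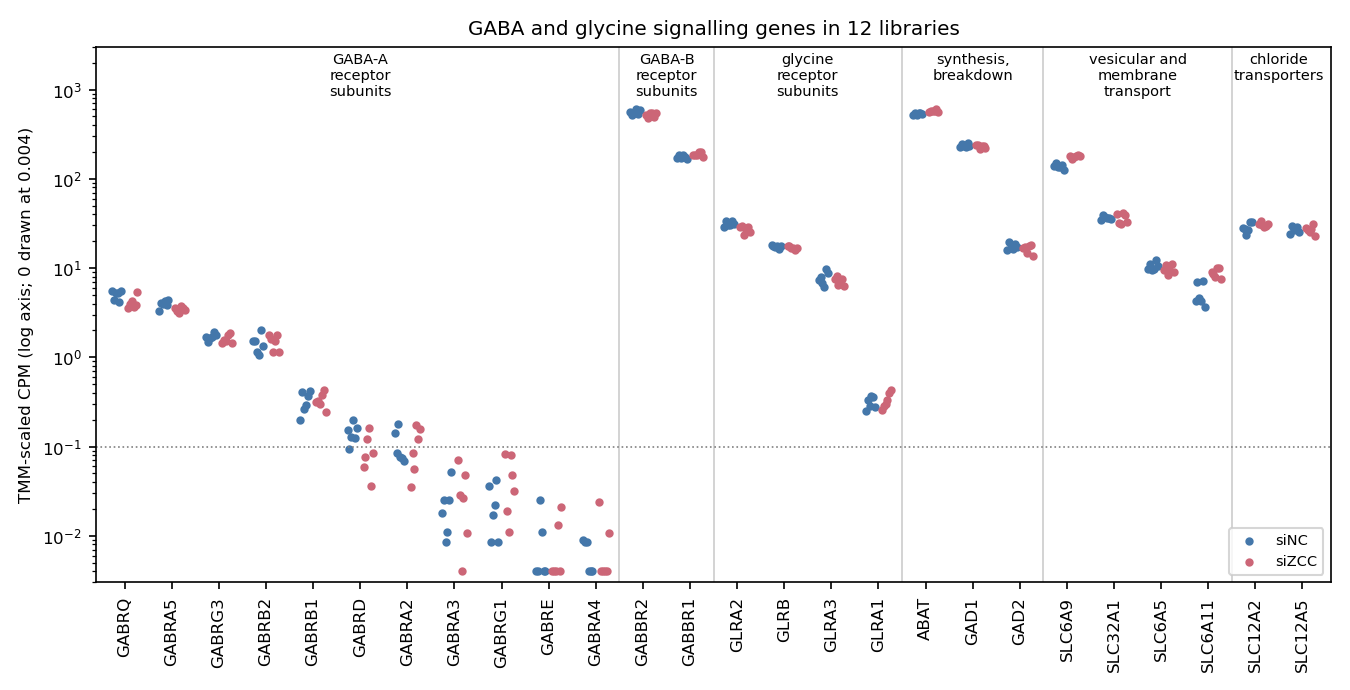
TMM-scaled CPM (log axis) of all 26 members in each of the 6 siNC libraries (blue) and 6 siZCC libraries (red), grouped by role; the dotted line marks 0.1 CPM, near the filter on low counts, and zeros are drawn at 0.004. GABBR2 and ABAT stand at 478 CPM or more in every library, while GABRA3, GABRA4, GABRG1 and GABRE lie under 0.1 CPM in all of them.

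Of the 26 members, 21 passed the filter on low counts and were tested. At an adjusted p under 0.05, 3 were higher and 2 lower in siZCC, or 23.8% of those tested, beside 22.2% of all 24671 genes tested (11.4% higher and 10.8% lower). The share of members called was thus near that of the whole table. Their median log2 fold change was -0.04, against -0.00164 over all genes tested, and 13 of 21 had a negative sign. The called members were the carriers SLC6A9 and SLC6A11 and the enzyme ABAT, which rose, and the receptor subunits GLRA2 and GABRQ, which fell. The groups did not overlap in CPM in 3 of the 21 members, those that rose, beside 9.74% of all genes tested (5.25% higher and 4.50% lower). Adjusted p-values come from the quasi-likelihood test of edgeR, adjusted by the Benjamini-Hochberg method over all genes tested, and intervals are 95% intervals of the same fit, not adjusted for the number of genes.

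**Figure D2:**
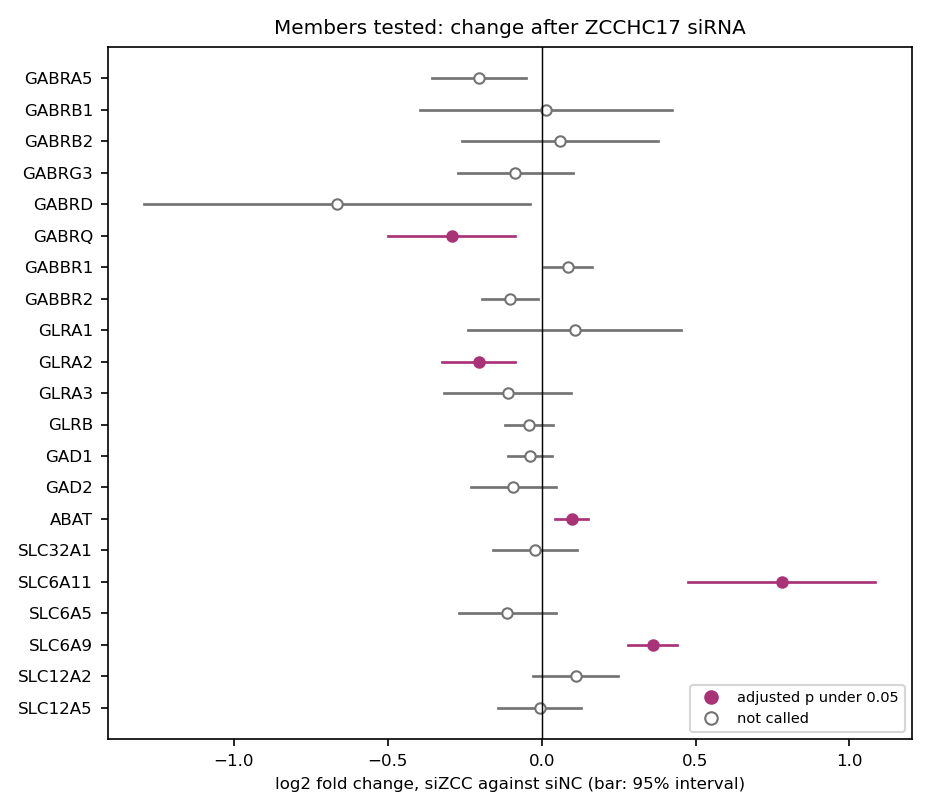
Log2 fold change of siZCC against siNC for the 21 members tested, with 95% intervals (bars); filled points have an adjusted p under 0.05. SLC6A11 (0.78) and SLC6A9 (0.36) lie farthest to the right, and the wide interval of GABRD belongs to a gene with 3 to 19 counts per library.

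Among GABA-A receptor subunits, 1 of 6 tested members was called. GABRQ encodes the theta subunit, found in brainstem and hypothalamic neurons. It lay at 4.22, 5.26 and 5.55 CPM (lowest, median and highest) in siNC and at 3.59, 3.88 and 5.36 CPM in siZCC. Of the 6 siZCC libraries, 4 lay below all siNC libraries, while siZCC replicates 3 and 6 lay within the siNC range. GABRQ fell by 0.29 on the log2 scale (SE 0.0981, interval -0.50 to -0.09, adjusted p = 0.0408), to 0.817 of the siNC level. This call was lost in 9 of the 12 fits that left out a library (adjusted p 0.0576 to 0.0942), all but those without siNC replicate 2, siNC replicate 5 or siZCC replicate 6.

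GABRA5, the alpha subunit of extrasynaptic receptors that is abundant in hippocampus and in immature neurons, stood at 3.29, 4.04 and 4.35 CPM in siNC and at 3.13, 3.48 and 3.74 CPM in siZCC. The ranges overlapped only through siNC replicate 1, the lowest of its group, since the other 5 siNC libraries lay above all siZCC libraries. Its log2 fold change of -0.20 (SE 0.0725, interval -0.36 to -0.05) had an adjusted p of 0.0544. It passed the threshold under upper quartile scaling (adjusted p 0.0478), with a mean count of at least 50 (0.0434), in the Wald test of DESeq2 (0.0266), with the IL1B block (0.0378) and without siNC replicate 1 (0.0133). In siNC the beta subunits GABRB2 and GABRB1 had means of 1.43 and 0.325 CPM and the gamma subunit GABRG3 of 1.70 CPM, and none of these was called. Intervals of their log2 fold changes ran from -0.40 to 0.42 (GABRB1), from -0.26 to 0.38 (GABRB2) and from -0.27 to 0.10 (GABRG3).

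GABRD, the delta subunit of tonic inhibition, rested on 11 to 19 counts per siNC library and 3 to 12 per siZCC library. Its log2 fold change of -0.66 (interval -1.29 to -0.04) did not pass the test (adjusted p = 0.123). The alpha subunits GABRA2, GABRA3 and GABRA4, the gamma subunit GABRG1 and the epsilon subunit GABRE did not pass the filter. GABRA2 had 3 to 21 counts per library, and the other 4 had 0 to 7. For these genes a difference between the groups was not detectable at this depth, and no fold is given.

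The GABA-B receptor needs both of its subunits, GABBR1 binding GABA and GABBR2 coupling to the G protein. GABBR1 lay at 165.6, 174 and 186 CPM in siNC and at 174, 185 and 197 CPM in siZCC. GABBR2 lay at 521, 555 and 607 CPM in siNC and at 478, 529 and 551 CPM in siZCC. The groups overlapped in both genes, with 3 siZCC libraries above all siNC libraries for GABBR1 and 3 below them for GABBR2. Log2 fold changes of 0.09 (SE 0.0370) and -0.10 (SE 0.0438) did not pass the test (adjusted p = 0.105 for each). GABBR2 passed in 2 of 21 alternative fits, with adjusted p of 0.0240 and 0.0499. The ratio of GABBR2 to GABBR1 counts within a library was 3.19 ± 0.265 in siNC and 2.80 ± 0.236 in siZCC (SD, n = 6), again with overlap. Exons of GABBR1 share 8.52% of their length with UBD on the same strand, so reads there may have been left out or split.

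Glycine receptors are made of alpha subunits with the beta subunit GLRB, and GLRA2 is the alpha form of the developing nervous system. GLRA2 was the most abundant alpha subunit and the called member of this role. It lay at 28.5, 31.1 and 33.7 CPM in siNC and at 23.3, 27.8 and 29.7 CPM in siZCC. The siZCC libraries 3, 4 and 6 lay below all siNC libraries, and the other 3 lay within the lower part of the siNC range. GLRA2 fell by 0.20 on the log2 scale (SE 0.0558, interval -0.32 to -0.09, adjusted p = 0.0142), to 0.868 of the siNC level. Over all assignments of libraries to groups, the two-sided exact permutation p of its log2 CPM was 0.0108.

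GLRB was not called, at 16.2, 17.6 and 17.9 CPM in siNC and 15.8, 16.9 and 17.6 CPM in siZCC (log2 fold change -0.04, interval -0.12 to 0.04, adjusted p = 0.478). The difference between the changes of GLRA2 and GLRB was not tested. GLRA3 (means of 7.79 and 7.23 CPM in siNC and siZCC) and GLRA1, the adult spinal form (0.312 and 0.336 CPM), were not called. Of the exon sequence of GLRA1, 18.1% overlaps a gene on the other strand, and the strand setting of the counting is not stated.

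No enzyme of GABA synthesis was called. GAD1, the decarboxylase that makes most of the GABA of the cell, lay at 226, 235 and 250.2 CPM in siNC and at 217, 235 and 239 CPM in siZCC. The medians of the groups were alike and the ranges overlapped. Its log2 fold change was -0.04 (SE 0.0335, adjusted p = 0.455), with an interval of -0.11 to 0.03, whose lower end is 0.927 of the siNC level. GAD2, the form tied to synaptic vesicles, was at 17.4 ± 1.36 and 16.3 ± 1.67 CPM (SD, n = 6; log2 fold change -0.09, interval -0.23 to 0.05).

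ABAT is the GABA transaminase, the mitochondrial enzyme that degrades GABA. It lay at 523, 536 and 548 CPM in siNC and at 562.5, 568 and 599 CPM in siZCC, so all siZCC libraries lay above all siNC libraries. The rise was small, 0.10 on the log2 scale (SE 0.0252, interval 0.04 to 0.15, adjusted p = 0.0102), or 1.07-fold. Its exact permutation p was 0.00216 (two-sided), a floor set by 6 libraries per group that follows from this separation. With no filter on low counts the adjusted p was 0.0525. In GENCODE v29 (GRCh38) ABAT lies on chromosome 16 from 8674565 to 8784575, and 1.56% of its exon sequence overlaps TMEM186 on the other strand, at 10.3 and 10.8 CPM.

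The 2 called members with the largest folds were plasma membrane carriers. SLC6A9 encodes GlyT1, the glycine carrier of glia and some neurons that clears glycine from the extracellular space. Its values were 127, 137 and 152 CPM in siNC and 168, 179.6 and 185 CPM in siZCC. Every siZCC library lay above every siNC library. SLC6A9 rose by 0.36 on the log2 scale (SE 0.0381, interval 0.28 to 0.44, adjusted p = 7.21e-06), or 1.28-fold. Its p-value ranked 117 among the 24671 genes.

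SLC6A11 encodes GAT3, the GABA carrier mostly found on astrocytes. It lay at 3.63, 4.45 and 7.12 CPM in siNC and at 7.57, 8.81 and 10.01 CPM in siZCC. The groups did not overlap, although siNC replicates 2 and 5, at 6.93 and 7.12 CPM, stood near the lowest siZCC libraries and apart from the other siNC libraries at 3.63 to 4.65 CPM. SLC6A11 rose by 0.78 on the log2 scale (SE 0.144, interval 0.48 to 1.08, adjusted p = 0.00100), or 1.72-fold, the largest fold of the members called. Leaving out a library moved this value between 0.70 and 0.90. For both carriers the exact permutation p was at its floor (two-sided p = 0.00216), which restates that the groups did not overlap.

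In GENCODE v29 (GRCh38) SLC6A9 lies on the minus strand of chromosome 1 from 43991500 to 44031467 and SLC6A11 on the plus strand of chromosome 3 from 10816200 to 10940733. Of the exon sequence of SLC6A9, 7.83% overlaps CCDC24 on the other strand, which stood at 16.5 and 15.7 CPM with a log2 fold change of -0.07. GLRA2 lies on chromosome X from 14529298 to 14731812 and GABRQ on chromosome X from 152638183 to 152657534, both on the plus strand. The 250 bases before the RefSeq start of these members (GRCh38.p14, 5′ to 3′ on the strand of the gene) are shown because these are the members with the largest called change in each direction. Such sequence was found in RefSeq for 23 of the 26 members. Capitals mark matches, on either strand, to 5 words. GGGCGG, the GC box, is in 42.6% of 35116 RefSeq windows of this length. CCAAT is in 32.0% of them. The TATA box, searched as TATAAA, is in 10.7%. An E-box, searched as CAGCTG, is in 14.0%. The cyclic AMP response element TGACGTCA is in 1.65%. No pair of these words shares bases in the windows shown.
SLC6A9, chr1:44031463-44031712, minus strand: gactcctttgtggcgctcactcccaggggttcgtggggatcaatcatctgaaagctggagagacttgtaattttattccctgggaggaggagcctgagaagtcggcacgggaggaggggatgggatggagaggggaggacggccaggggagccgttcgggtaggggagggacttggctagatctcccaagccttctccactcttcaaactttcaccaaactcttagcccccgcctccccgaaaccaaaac
SLC6A11, chr3:10815978-10816227, plus strand: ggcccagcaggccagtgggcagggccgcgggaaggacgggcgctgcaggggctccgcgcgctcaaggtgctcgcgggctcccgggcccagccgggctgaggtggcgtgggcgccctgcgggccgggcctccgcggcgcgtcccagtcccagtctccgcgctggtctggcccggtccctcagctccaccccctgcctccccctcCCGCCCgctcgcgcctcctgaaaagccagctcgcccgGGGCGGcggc
GLRA2, chrX:14529048-14529297, plus strand: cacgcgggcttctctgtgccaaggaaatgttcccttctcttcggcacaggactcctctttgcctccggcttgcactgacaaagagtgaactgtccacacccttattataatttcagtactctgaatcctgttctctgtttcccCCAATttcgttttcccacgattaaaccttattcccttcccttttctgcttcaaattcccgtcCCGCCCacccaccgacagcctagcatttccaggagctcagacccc
GABRQ, chrX:152637645-152637894, plus strand: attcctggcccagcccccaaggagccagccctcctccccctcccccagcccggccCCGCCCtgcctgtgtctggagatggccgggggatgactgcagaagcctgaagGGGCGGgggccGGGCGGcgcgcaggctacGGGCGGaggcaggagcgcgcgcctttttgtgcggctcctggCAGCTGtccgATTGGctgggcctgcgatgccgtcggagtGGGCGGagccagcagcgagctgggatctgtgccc
The window of SLC6A9 holds none of these words, and that of SLC6A11, with 80.0% G and C, holds 2 GC boxes. GLRA2 has 1 GC box and 1 CCAAT, and its window is 50.8% G and C. GABRQ has 5 GC boxes, 1 CCAAT and 1 E-box. A match describes the letters only. RefSeq lists a second start for GLRA2, whose window is not shown. The RefSeq start of GABRQ lies before its GENCODE start, and the orientation of its window was not found in a GENCODE transcript, as it was for the other 3.

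SLC6A5 encodes GlyT2, the carrier that supplies glycinergic terminals. It lay at 9.54, 10.2 and 12.2 CPM in siNC and at 8.41, 9.38 and 11.2 CPM in siZCC, with 4 siZCC libraries below all siNC libraries and 2 within their range. Its log2 fold change of -0.11 (interval -0.27 to 0.05) was not called (adjusted p = 0.317). Within a library, counts of SLC6A9 were 11.8 to 14.2 times those of SLC6A5 in siNC for the lowest and the highest library, and 15.6 to 20.8 times in siZCC, without overlap. This ratio is a description of 2 members with lengths that differ, not a ratio of molecules.

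SLC32A1, the vesicular carrier shared by GABA and glycine, had means of 36.5 CPM in siNC (SD 1.37, n = 6) and of 35.99 CPM in siZCC (SD 4.62, n = 6), and was not called (log2 fold change -0.02, interval -0.16 to 0.11, adjusted p = 0.849). In siZCC, replicates 1, 4 and 5 lay at 39.2 to 41.1 CPM and replicates 2, 3 and 6 at 31.2 to 32.4 CPM, above and below the whole siNC range of 34.9 to 38.9 CPM. The upper 3 are the siZCC libraries with high IL1B and the lower 3 those with low IL1B. Within high IL1B libraries the mean log2 CPM of SLC32A1 was 0.11 higher in siZCC, and within low IL1B libraries 0.17 lower, in both cases with no overlap of 3 against 3 libraries. SLC32A1 was the 1 member of 21 to separate in opposite directions on the 2 sides, as 84 of all 24671 genes (0.34%) did. It was singled out after its values were seen, and the difference between the sides was not tested.

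**Figure D3:**
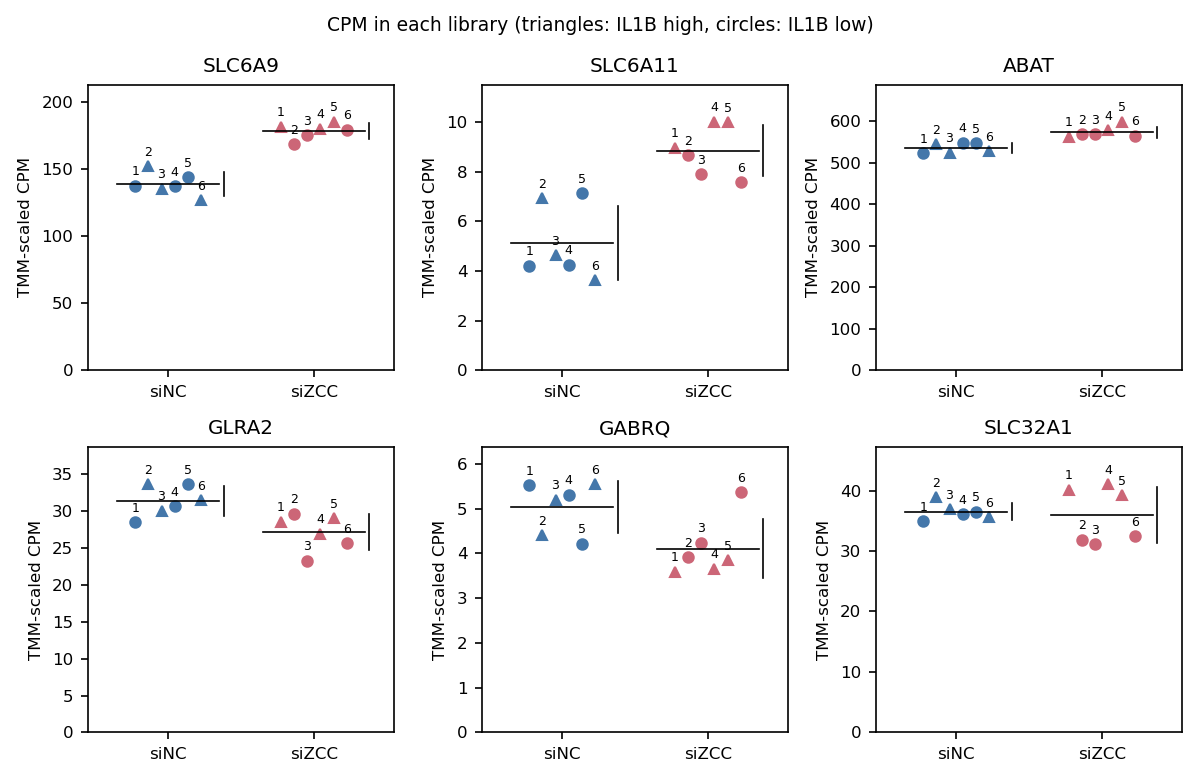
TMM-scaled CPM (linear axes from 0) in each library for the 5 called members and SLC32A1; digits are replicate numbers, triangles are libraries with high IL1B and circles those with low IL1B, horizontal lines are means and vertical lines 1 SD (n = 6). SLC6A9, SLC6A11 and ABAT are separated between siNC (blue) and siZCC (red), while SLC32A1 splits within siZCC into 39.2 to 41.1 and 31.2 to 32.4 CPM.

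On both sides of the IL1B division the 3 members that rose were higher without overlap. Their full separation over all 12 libraries fixes this in advance, so only the sizes on each side are informative. The difference in mean log2 CPM between siZCC and siNC was 0.40 and 0.32 for SLC6A9, 0.98 and 0.67 for SLC6A11 and 0.12 and 0.07 for ABAT (high and low IL1B). GLRA2 was lower by 0.17 and 0.24 and GABRQ by 0.44 and 0.16, and for both the groups overlapped on the low side.

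Neither chloride transporter was called. SLC12A2 (NKCC1) was at 23.7, 27.96 and 32.9 CPM in siNC and 28.98, 30.7 and 34.0 CPM in siZCC (log2 fold change 0.11, interval -0.03 to 0.25, adjusted p = 0.252). SLC12A5 (KCC2) was at 24.1, 26.9 and 29.6 CPM in siNC and 22.9, 27.2 and 31.0 CPM in siZCC (-0.01, interval -0.14 to 0.13, adjusted p = 0.959). The groups overlapped in either gene. The ratio of SLC12A5 to SLC12A2 counts within a library was 0.955 ± 0.135 in siNC (0.781 to 1.12) and 0.874 ± 0.113 in siZCC (0.738 to 1.04; SD, n = 6). The 2 transporters were thus at similar counts in every library, and the ratio overlapped between the groups.

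Members also varied together between libraries of the same group, a pattern noticed in the values. In siNC, replicates 2 and 5 were the 2 highest for SLC6A11, SLC6A9, GAD1 (246 and 250.2 CPM), GAD2 (19.4 and 18.6 CPM), GLRA2 (33.7 CPM in each), SLC6A5 (10.97 and 12.2 CPM) and SLC12A5 (29.6 and 29.2 CPM). They were the 2 lowest for GABRQ (4.41 and 4.22 CPM) and GABBR2 (521 and 530 CPM). The same libraries had the highest summed pan-neuronal markers of siNC (3926 and 4032 CPM) and the highest SLC1A3, a glutamate carrier of astroglia (469.5 and 487 CPM). Their GFAP, an astrocyte filament, was the lowest of siNC (593 and 488 CPM). IL1B was high in replicate 2 and low in replicate 5, so these siNC libraries do not follow the IL1B division. In siZCC, besides SLC32A1, the high IL1B replicates 1, 4 and 5 all lay above replicates 2, 3 and 6 for SLC6A9, SLC6A11, GABBR1, GABRA5 and SLC12A5. For SLC6A9 they were at 180 to 185 CPM against 168 to 179 CPM. For GABRQ they all lay below, at 3.59 to 3.85 against 3.92 to 5.36 CPM. The other members tested did not divide so in siZCC. These divisions within siZCC were not tested.

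A list of 100 further genes of these pathways gave 24 higher and 10 lower in siZCC among 94 tested, with a median log2 fold change of 0.02. That share of 36.2% stands beside 22.2% of all genes tested. With a mean count of at least 50, 37 of 89 were called (41.6%), beside 30.2% of all genes. The list was chosen with earlier results of these data known, and its genes were not matched to all genes by level. The difference in shares was not tested. In receptor clustering and trafficking, 5 of 20 rose and 1 fell, beside 11.4% higher and 10.8% lower of all genes tested. The number that rose was 3 under upper quartile scaling, with no filter on low counts and when siNC replicate 4 or 6, or siZCC replicate 1, 3, 4 or 6, was left out. HAP1, which helps return GABA-A receptors to the membrane, lay at 29.3 to 38.8 CPM in siNC and at 49.1 to 60.4 CPM in siZCC and rose (log2 fold change 0.70, SE 0.0569, adjusted p = 6.55e-07). GABARAPL1, a relative of the GABA-A receptor-associated protein, rose by 0.15 (SE 0.0281) and TRAK2, a motor adaptor, fell by 0.20 (SE 0.0361). The scaffold gephyrin (GPHN) was at 53.4 and 57.5 CPM and was not called (log2 fold change 0.11, adjusted p = 0.0755). NLGN2, another of the 5 that rose, was at means of 388.9 CPM in siNC and 442 CPM in siZCC, without overlap (log2 fold change 0.18, adjusted p = 9.39e-04).

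Partners and effectors of the GABA-B receptor gave 4 higher and 2 lower of 11 tested, beside 11.4% higher and 10.8% lower of all genes tested. The auxiliary subunit KCTD16 rose by 0.26 (SE 0.0445) and the G protein subunit GNAO1 by 0.17 (SE 0.0327) on the log2 scale. The auxiliary subunit KCTD12 fell by 0.17 (SE 0.0499) and GNAI1 by 0.10 (SE 0.0274). The call of KCTD12 was lost without siNC replicate 6 (adjusted p = 0.0502). In these 4 genes the adjusted p ran from 5.36e-04 (KCTD16) to 0.0219 (KCTD12).

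Of 7 genes of glycine supply and breakdown, 2 rose and 1 fell, beside 11.4% higher and 10.8% lower of all genes tested. SHMT2, which makes glycine from serine in mitochondria, lay at 92.7, 98.1 and 101.5 CPM in siNC and at 115, 119.9 and 126 CPM in siZCC. GLDC, the decarboxylase of the glycine cleavage system, lay at 82.1 to 90.7 CPM in siNC and at 98.5 to 102 CPM in siZCC. Neither gene overlapped between the groups. The log2 fold changes were 0.30 (SE 0.0294, adjusted p = 3.89e-06) and 0.21 (SE 0.0290, adjusted p = 7.46e-05). The cytosolic SHMT1 fell by 0.12 (SE 0.0373, adjusted p = 0.0287), a call lost in 5 of 21 alternative fits (adjusted p 0.0523 to 0.0651), among them those without siNC replicate 3, siNC replicate 4 or siZCC replicate 3. The other cleavage system genes GCSH, AMT and DLD were not called.

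Genes of glutamate and GABA supply and breakdown gave 4 higher and 1 lower of 16 tested, beside 11.4% higher and 10.8% lower of all genes tested. The lower calls were 3 under upper quartile scaling, with a mean count of at least 50, in the Wald test of DESeq2, with the GC and length correction (5 higher) and when siNC replicate 3, siZCC replicate 1 or siZCC replicate 2 was left out. They were 2 with no filter and when siNC replicate 2, 4 or 5, or siZCC replicate 5, was left out. The 4 higher include SLC6A8, a carrier of creatine rather than of glutamate or GABA, which rose by 0.26 (SE 0.0317). SLC1A3 rose by 0.30 (SE 0.0526), while the neuronal glutamate carrier SLC1A1 fell by 0.29 (SE 0.0783). ALDH5A1, which acts after ABAT in GABA breakdown, rose from 72.0 to 83.5 CPM (log2 fold change 0.21, adjusted p = 0.00484). Among chloride transport regulators and related carriers 6 rose and 2 fell of 18 tested, beside the same 11.4% higher and 10.8% lower of all genes. Lower calls in this list were 4 under the GC and length correction (4 higher) and without siZCC replicate 5. SLC12A4 (KCC1) rose by 0.28 (SE 0.0374) and SLC26A11 by 0.24 (SE 0.0333), and the anion exchanger SLC4A3 fell by 0.26 (SE 0.0353) and SLC12A8 by 0.29 (SE 0.0659).

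Transcription factors of GABA and glycine neurons gave 3 higher and 3 lower of 22 tested, with a median of -0.03, beside 11.4% higher and 10.8% lower of all genes tested. NR2F1 rose by 0.22 (SE 0.0386), while LHX1 fell by 0.28 (SE 0.0762) and NKX2-1 by 0.27 (SE 0.0751). The forebrain factors DLX1, DLX2, DLX5 and DLX6, at 2.40 to 22.2 CPM in siNC, were not called, nor were GATA2, GATA3 and TAL1 of brainstem and spinal inhibitory neurons, at 12.9 to 100.2 CPM.

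**Figure D4:**
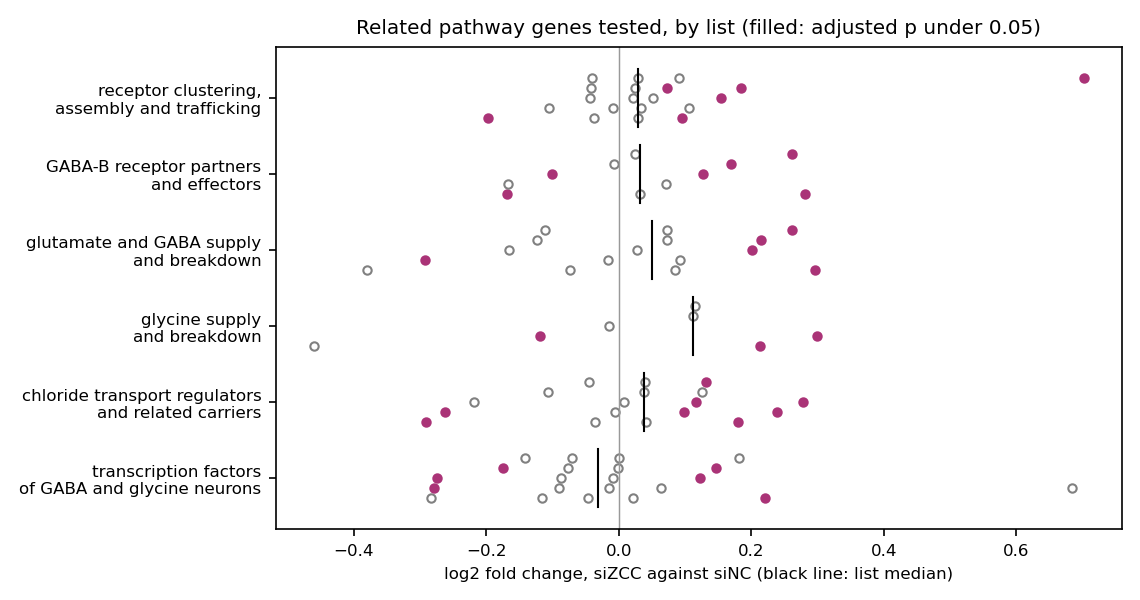
Log2 fold change of siZCC against siNC for the 94 related genes tested, by list (points; filled where the adjusted p is under 0.05), with the median of each list as a black line. HAP1 lies at 0.70, and the list medians run from -0.03 to 0.11.

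Marker lists moved with these results as follows. Of 9 astrocyte genes, 4 were higher and 1 lower, beside 11.4% and 10.8% of all genes tested, with summed levels of 1650 to 1874 CPM in siNC and 1720 to 2043 CPM in siZCC. Among them SLC1A3, AGT and ALDOC rose without overlap and ALDH1L1 with overlap, GFAP, GJA1, S100B and SLC1A2 were not called, and AQP4 fell. Every one of these 9 genes was above 1.88 CPM in all libraries. Of 12 pan-neuronal genes, 1 was higher and 6 lower, with sums of 3592 to 4032 CPM in siNC and 3245 to 3679 CPM in siZCC. Genes of dividing cells were lower in 8 of 8 cases, with sums of 681 to 792 and of 524 to 616 CPM. Of 9 glutamatergic neuron genes tested 1 was higher and 2 lower, and their summed level of 79.9 to 86.2 CPM in siNC and 72.4 to 76.7 CPM in siZCC did not overlap. SLC17A6 and SLC17A8, the vesicular glutamate carriers, fell by 0.29 and 0.53 on the log2 scale. Of 9 progenitor genes 3 were higher and 2 lower, of 6 oligodendrocyte lineage genes tested 1 was lower, of 8 fibroblast genes 1 was higher and 2 lower, and of 3 pluripotency genes tested 2 were higher. The part of these shifts in the changes of SLC6A9, SLC6A11, ABAT, GLRA2 and GABRQ was not tested.

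Peptides and calcium-binding proteins that mark classes of inhibitory neurons included 5 of 9 that did not pass the filter on low counts, SST, VIP, CCK, PVALB and NOS1. RELN was at 185 and 169.6 CPM and CALB1 at 25.3 and 26.9 CPM (siNC and siZCC), and neither was called. NPY rose from 4.30 ± 0.528 to 6.99 ± 0.633 CPM and CALB2 fell from 6.50 to 4.32 CPM, both without overlap of the groups (log2 fold changes 0.70 and -0.59, adjusted p = 1.71e-05 and 5.74e-05).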

How the data were processed

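RNA was measured in 12 libraries, grouped and numbered by their titles, of which 6 were siNC and 6 siZCC. Qiazol lysis and a NEBNext Ultra II Directional kit are given per the labels' protocols. Whole-number counts per gene symbol are what the authors deposited, and the submitters' processing notes name bcl2fastq 2.17, STAR 2.7.6a, featureCounts 2.0.1 and GRCh38. The annotation, the strand setting and the treatment of multi-mapping reads are not given in the sources used here.

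The deposited counts entered edgeR 4.0.16 under R 4.3.3 (filterByExpr, about 0.0997 CPM in enough libraries, 24671 genes kept; TMM; quasi-likelihood test over all 12 libraries, no covariate) with Benjamini-Hochberg adjustment across the genes kept; calls need an adjusted p under 0.05. Log2 CPM uses a prior count of 2. Exact permutation tests run over all assignments of libraries to groups. Exon lengths and positions are from GENCODE v29, promoters from RefSeq, both GRCh38; 92.0% of the table's symbols were found in GENCODE. The biological coefficient of variation was 6.55%, and in members under 2 CPM counting error is of about that size or larger.

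Members and lists were chosen with earlier results of these data known. The rule for names covers every member (with values by group for called members and the highest of each role), the 2 smallest p-values per direction in each related list among called genes, ZCCHC17 and IL1B; other names were chosen after their values were seen. A gene that the rule covers is not reported here. Alternatives were DESeq2 size factors, upper quartile scaling, 2 other filters, the Wald test of DESeq2 1.42.0, limma 3.58.1 voom, a replicate block, an IL1B block and leaving out each library; a correction for GC content and length was added after seeing the data. Figures were drawn in Python 3.11.15 with matplotlib 3.10.9.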

Additional observations from a re-analysis of the deposited data

Results flagged for a closer look

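In 46 groups of 6 libraries (the 21 members tested, the ratio of SLC12A5 to SLC12A2 and the library total, in siNC and in siZCC) the highest and the lowest library were compared with the rest, and about 2.3 are due to stand apart by chance. The total of siNC replicate 4, 90755953 counts, did so: the next lowest siNC total was 109973707 and the highest 120023356, a gap of 0.657 of the range. No member stood apart in this library by the same measure. Without it SLC6A9, SLC6A11, ABAT and GLRA2 were still called, GABRQ was not (adjusted p = 0.0765), and 4689 genes were called over the whole table.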

How the results depend on the processing

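The 5481 genes called over the whole table became 4785 (no filter) to 6396 (correction for GC content and length, added after seeing the data) under the 9 other settings, and 4484 to 5626 when single libraries were left out. Members called ranged from 4 to 6, and from 4 to 5 without single libraries; related genes called from 31 to 40, and from 29 to 35. SLC6A9, SLC6A11 and GLRA2 were called in every setting run, and no called member changed sign. Without single libraries the log2 difference in the ratio of SLC12A5 to SLC12A2, -0.13, ran from -0.18 to -0.08.

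Libraries with the same number showed little shared deviation, as the correlation of their deviations from the group means was -0.077 to 0.0179. The labels do not say whether they shared a culture, and this correlation cannot exclude it. With the replicate block 4902 genes, 6 members and 33 related genes were called; the block added GABBR2 (adjusted p = 0.0240) and lost SHMT1 (0.0556), and changed no other call of a member or related gene named. Under it 3 clustering and trafficking genes were called higher and 2 genes of glutamate and GABA supply lower. GABBR2 also passed with the GC and length correction (0.0499). Depth limits the members under 2 CPM.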
